A study of Mus musculus with 12 samples.

Results

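The NU1 line was grown and sequenced in 3 repeat culture experiments, numbered 5, 7 and 9 in the sample labels, and the differences between those experiments were described across all measured genes. Library names gave the experiment number, and all 12 of the 12 libraries of the series belonged to 1 of the 3 experiments, 4 in each. Experiment 9 was set against experiments 5 and 7, and experiment 7 was set against experiment 5, with growth state and hairpin held as covariates. Library names alone set the groups, although the comparison was chosen with earlier results of these data known.

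NU1 is a mouse urothelial line that became immortal by itself during serial passaging. Each experiment held 1 library of each of 4 conditions. Proliferating cells grew in complete medium with EGF, hydrocortisone and serum, and quiescent cells were taken to confluence, given 1 µM rosiglitazone (a PPARγ agonist) and 0.5 µM erlotinib (an EGFR kinase inhibitor) on top of the same medium, and named by day 7. In both states the cells carried a lentiviral hairpin, either shNT, whose genotype label is WT, or sh4, whose genotype label is Stag2-KD. Stag2 is 1 of the interchangeable subunits of cohesin, which entraps DNA and shapes chromosome loops. All 12 libraries thus came from 1 immortal line under viral transduction, and urothelium in an animal was not measured. A batch label ran in step with the experiment number, so culture round and batch cannot be told apart. An experiment is 1 round of culture: the 4 libraries of an experiment were the units of the tests, so the p-values measure spread between libraries and not between further rounds.

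Repeat cultures of 1 line can drift in several known ways. Signalling by type I interferon runs through receptor-linked kinases and transcription factors to a large set of antiviral genes, many of which carry an interferon-stimulated response element near their start. Immortal lines can also gain or lose chromosome segments and imprinting marks, and density or nutrient supply alters cell cycle, amino acid and ribosome genes. These are background facts and were not measured here beyond transcript level.

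Total counts per library ran from 14524429 to 21987539, and the 10 most abundant genes took 5.40 to 6.65% of them. Of 23337 rows, 12406 genes passed the filter on low counts and were tested. Levels are given as CPM, a gene's count relative to the TMM-scaled total of its library, and a gene was called where the edgeR quasi-likelihood test had a Benjamini-Hochberg adjusted p under 0.05. Of the 16 urothelial markers, 13 were tested and summed to 12200 to 22900 CPM in every experiment, while Trp63 was at 0 in all libraries. Fibroblast markers summed to at most 2.56 CPM, with Col1a2, Col3a1 and Lum at 0, and endothelial markers to at most 0.82 CPM, with Emcn and Cldn5 at 0. Leukocyte markers summed to 45.3 to 295 CPM, carried by Cd68, Csf1r and Cd14, while Emr1, Cd3e and Tyrobp were at 0. Smooth muscle markers summed to 188 to 380 CPM mainly through Smtn, and nerve markers to at most 2.26 CPM. In experiment 5 the targeted gene Stag2 stood at 139 and 128 CPM with shNT and at 33.3 and 9.43 CPM with sh4, and in experiments 7 and 9 at 107 to 145 CPM with shNT and 11.7 to 24.9 CPM with sh4. Its level did not separate experiment 9 from the others (log2 difference -0.23, edgeR adjusted p = 0.46).

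The experiment accounted for a median of 21.5% of a gene's variance in log2 CPM, with quartiles of 9.25 and 39.8%. Growth state accounted for 29.8%, the hairpin for 4.76% and the remainder for 24.3%. For 3230 genes, or 26% of those tested, the experiment was the largest of the 4 sources. The genes most closely tied to it, among those whose mean log2 CPM reached 5, were Ephb2, a receptor for ephrins on neighbouring cells, at 94.6% and Xrcc5, the Ku80 subunit of DNA end joining, at 94.3%. Abhd11, Commd8, Krit1 and 2610001J05Rik followed at 90.7 to 92.2%. The common biological coefficient of variation was 0.162 with experiment in the model and 0.252 without it.

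Ephb2 separated all 3 experiments. It stood at 112, 99.5, 95.2 and 75.2 CPM in experiment 5, at 52.4, 53.8, 69.9 and 68.7 CPM in experiment 7, and at 28.4, 29.3, 24.6 and 29.1 CPM in experiment 9, each in the order proliferating shNT, proliferating sh4, quiescent shNT and quiescent sh4. The same order of conditions is used for every series of 4 values below. The 3 ranges of Ephb2 did not overlap, and experiment 9 differed from the mean of the others by -1.45 log2 units (SE 0.13, edgeR adjusted p = 4.58e-05). Xrcc5 stood at 29 to 36.7 CPM in experiment 9 and at 53.7 to 66.6 CPM in the other 8 libraries, with no overlap (log2 difference -0.83, SE 0.08, edgeR adjusted p = 5.26e-05).

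**Figure D1:**
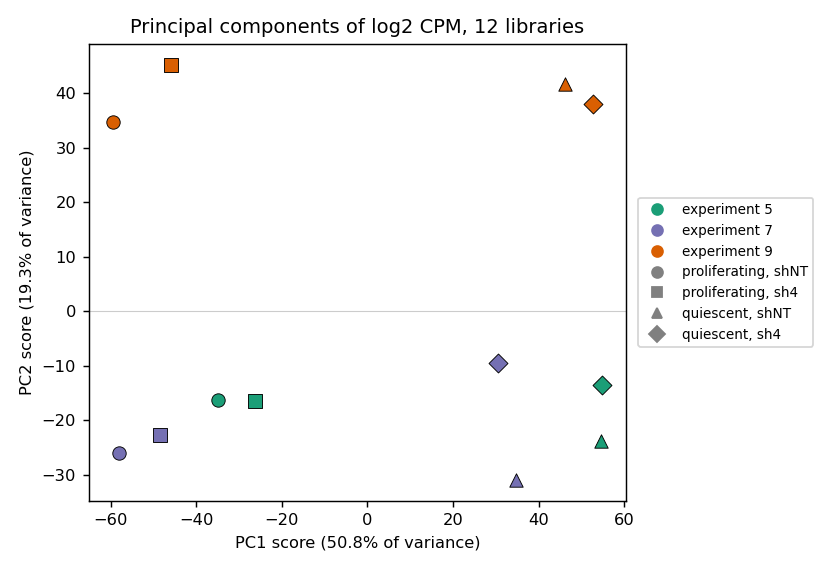
Scores of the 12 libraries on the first principal component (x axis, 50.8% of variance) and the second (y axis, 19.3%), computed from log2 CPM, with colour for experiment and symbol for condition. Experiment 9 lies at 34.7 to 45.2 on the second component, and experiments 5 and 7 lie together below 0, at -9.5 to -31.

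Experiment 9 stood apart from both others. Against the mean of experiments 5 and 7, edgeR called 2181 of 12406 genes, which is 17.6%: 1066 higher (8.59%) and 1115 lower (8.99%). Between experiments 7 and 5 it called 686 genes, which is 5.53%: 252 higher in 7 (2.03%) and 434 lower (3.5%). A difference among the 3 experiments of any form was called for 2829 genes (22.8%). The root mean square log2 difference between libraries of 1 condition was 0.554 to 0.593 between experiments 5 and 7, 0.61 to 0.759 between 5 and 9, and 0.614 to 0.794 between 7 and 9. As a description without a test, 933 genes (7.52%) were above both other experiments in experiment 9 in all 4 conditions and 1198 (9.66%) were below both. Experiment 7 was above 5 in all 4 conditions for 2036 genes (16.4%) and below for 2076 (16.7%). Experiment 9 had to pass both other libraries of a condition and experiment 7 only that of 5, so these shares cannot be compared. The contrast for experiment 9 also averages over more libraries than 7 against 5, so the counts called differ in precision.

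These counts moved with single libraries. The count for experiment 9 fell to 1063 without its proliferating sh4 library and rose to 3474 without the quiescent sh4 library of experiment 5. The count for 7 against 5 ran from 47, without the proliferating shNT library of experiment 7, to 1998, again without the quiescent sh4 library of experiment 5. It changed by more than 1.5 times on removal of any library of experiments 5 or 7 and of either proliferating library of experiment 9. The quiescent sh4 libraries of experiments 5 and 7 also had the strongest rank correlations of their deviations with transcript length, -0.423 and 0.352 across genes, against -0.253 to 0.217 in the other 10. With offsets for transcript length and GC content, 2554 genes were called for experiment 9 and 891 for 7 against 5. Without all 3 quiescent sh4 libraries the counts were 2997 and 1353, an alternative chosen after seeing the data.

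Of the lists with at least 8 tested genes, interferon-stimulated genes had the largest median shift. Of 38 tested members, 30 were higher in experiment 9 and 0 lower, against 8.59% of all genes higher, and the median log2 difference was 1.67 beside -0.003 for all genes. In 26 members experiment 9 was above both others in all 4 conditions, against 7.52% of all genes. Leaving out single libraries kept 28 to 35 members higher, with 30 without the 3 quiescent sh4 libraries. The experiment accounted for a median of 68.1% of the members' variance. The median deviation of the list from the mean of its condition was 0.79, 0.80, 1.5 and 1.30 log2 units in experiment 9, between -0.70 and 0.07 in experiment 5 and between -0.88 and -0.55 in experiment 7. All 4 libraries of experiment 9 were thus above all 8 others.

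Promoters of 4 strongly shifted members are shown because the interferon-stimulated response element is the textbook regulatory sequence of this gene set. They are the 160 bases before the annotated start, from RefSeq on GRCm38.p6, 5′ to 3′ on the gene's strand, with capitals for each match to GAAANNGAAA on either strand. Ifit1 lies at chr19:34640729-34640888 on the plus strand, Ifit3 at chr19:34583369-34583528 on the plus strand, Trim30a at chr7:104465194-104465353 on the minus strand and Ifitm3 at chr7:141010745-141010904 on the minus strand.
Ifit1: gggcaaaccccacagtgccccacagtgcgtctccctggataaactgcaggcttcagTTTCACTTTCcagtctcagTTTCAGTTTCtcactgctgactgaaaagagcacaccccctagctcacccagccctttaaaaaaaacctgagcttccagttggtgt
Ifit3: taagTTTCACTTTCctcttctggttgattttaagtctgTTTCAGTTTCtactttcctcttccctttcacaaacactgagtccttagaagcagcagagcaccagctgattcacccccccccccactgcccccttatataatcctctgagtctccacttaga
Trim30a: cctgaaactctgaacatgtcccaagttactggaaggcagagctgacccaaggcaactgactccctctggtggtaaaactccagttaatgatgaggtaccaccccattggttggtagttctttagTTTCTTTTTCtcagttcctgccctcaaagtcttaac
Ifitm3: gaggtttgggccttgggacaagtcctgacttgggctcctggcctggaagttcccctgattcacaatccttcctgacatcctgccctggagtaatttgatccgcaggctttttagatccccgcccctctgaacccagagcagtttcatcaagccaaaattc

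Ifit1 and Ifit3 each hold 2 matches in this window, Trim30a holds 1, and Ifitm3 holds none of these letters. Trim30a has a second annotated start whose window holds none. Within 250 bases before the start, the motif was found in 14 of the 29 tested list members that had a promoter entry (48.3%). It was found in 13 of 23 called higher (56.5%) and in 936 of 27025 genes of the whole promoter table (3.46%). A match to these letters is a description of the sequence and not a measured binding site.

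Antiviral effectors led the list. Ifit1, whose protein binds viral RNA caps, stood at 11.4, 6.03, 12.4 and 22.7 CPM in experiment 9, at 1.18, 2.1, 0.138 and 0.544 CPM in experiment 5 and at 1.15, 0.953, 1.96 and 1.67 CPM in experiment 7. Every library of experiment 9 was above every other library (log2 difference 3.42, SE 0.44, edgeR adjusted p = 0.000471). Its neighbour Ifit3 was low, at 1.55 to 4.92 CPM in experiment 9 and 0 to 0.842 CPM elsewhere, with no overlap (log2 difference 3.17, SE 0.51, edgeR adjusted p = 0.00186). Ifitm3, which blocks virus entry at endosomes, stood at 41, 66.3, 227 and 95.6 CPM in experiment 9, at 23.8, 29.4, 9.66 and 7.66 CPM in experiment 5 and at 5.37, 9.59, 5.08 and 11.3 CPM in experiment 7. These ranges did not overlap either, and the log2 difference was 3.16 (SE 0.49, edgeR adjusted p = 0.00151). Trim30a, a member of a family of near copies whose reads may be split in counting, stood at 1.53, 2.18, 7.1 and 8.79 CPM in experiment 9 and at 0.0596 to 0.449 CPM elsewhere (log2 difference 4.0, SE 0.39, edgeR adjusted p = 6.66e-05). Ifit1, Ifit3, Ifitm3, Trim30a and Rtp4 kept an edgeR adjusted p under 0.05 whichever single library was left out.

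Rtp4, an interferon-induced receptor transporter, stood at 3.01, 7.52, 24.9 and 28.5 CPM in experiment 9 against 0.306 to 2.09 CPM in the others (log2 difference 3.48, SE 0.42, edgeR adjusted p = 0.000346). Isg15, a ubiquitin-like modifier, stood at 7.22, 8.49, 25.6 and 27 CPM in experiment 9 against 1.04 to 3.76 CPM in the others (log2 difference 2.84, SE 0.31, edgeR adjusted p = 0.000182). Neither gene's ranges overlapped between experiment 9 and the rest.

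Members that carry the signal were higher as well. Irf7, the factor that amplifies interferon transcription, stood at 8.18, 9.64, 17.3 and 18.3 CPM in experiment 9 and at 1.49 to 4.47 CPM in the others (log2 difference 2.39, SE 0.18, edgeR adjusted p = 1.45e-05). Irf9 differed by 1.13 (SE 0.16, edgeR adjusted p = 0.000951) on the log2 scale. Irf9 is the DNA-binding part of the complex that recognises the response element. It overlapped between experiments, since the proliferating shNT library of experiment 9 was at 30.9 CPM and experiment 5 reached 36.8 CPM. Unc93b1, which carries nucleic acid sensing Toll-like receptors to endosomes and was outside the list, stood at 13.4, 15.6, 13.6 and 18.6 CPM in experiment 9 and 1.41 to 3.45 CPM in the others (log2 difference 2.72, SE 0.13, edgeR adjusted p = 9.62e-07). Unc93b1 lies on chromosome 19 in a run of 5 neighbouring genes that were all called higher in experiment 9, from Aldh3b1 to Nudt8. Markers of leukocytes overlapped between experiments: their sum was 45.3 to 278 CPM in experiment 9, 92.8 to 295 CPM in experiment 5 and 80.7 to 171 CPM in experiment 7.

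Antigen presentation genes did not move as a block. Of 20 tested members, 3 were higher in experiment 9 and 1 lower, beside 17.6% of all genes called, and the median log2 difference was -0.11. Nlrc5, the transactivator of MHC class I genes, was higher by 3.31 log2 units (SE 0.40, edgeR adjusted p = 0.000347), but stood at only 0.631 to 1.25 CPM in experiment 9 and 0 to 0.289 CPM elsewhere. The immunoproteasome subunit Psmb8 was higher by 1.74 (SE 0.31, edgeR adjusted p = 0.00355) and B2m, the light chain of MHC class I, by 0.72 (SE 0.14, edgeR adjusted p = 0.00527). B2m stood at 170, 216, 543 and 485 CPM in experiment 9 and at 120 to 290 CPM elsewhere, so its proliferating libraries overlapped with the others.

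**Figure D2:**
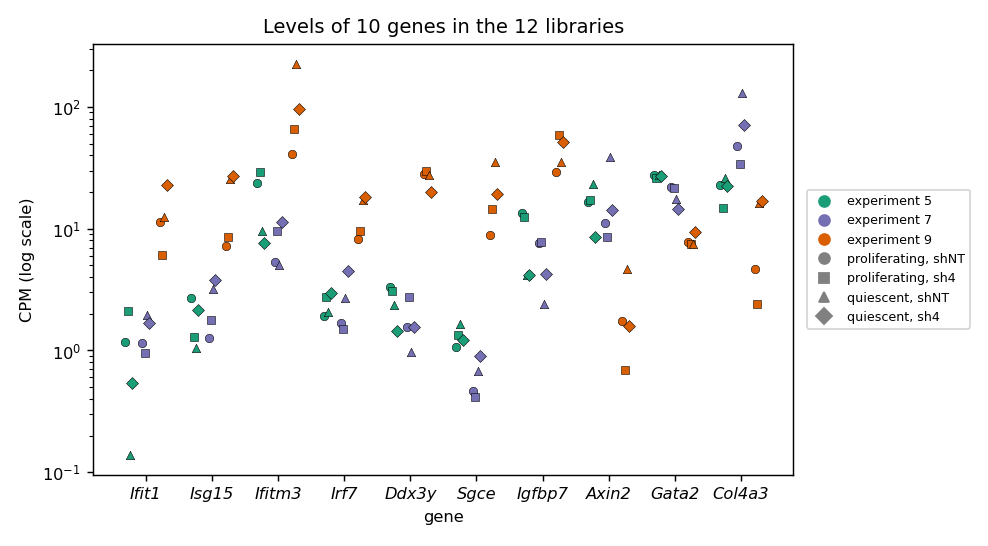
CPM (y axis, log scale) of 10 genes (x axis) in each of the 12 libraries, with colour for experiment and symbol for condition. In Ifit1, Isg15, Ifitm3, Irf7, Ddx3y, Sgce and Igfbp7 all points of experiment 9 are above the other 8, and in Axin2 and Gata2 all are below them.

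All 4 tested genes of the Y chromosome were higher in experiment 9. Eif2s3y, a translation initiation subunit, stood at 26.4, 29.9, 35.1 and 20.6 CPM in experiment 9, at 3.31, 3.03, 1.45 and 1.63 CPM in experiment 5 and at 1.27, 2.68, 2.2 and 1.85 CPM in experiment 7. The log2 difference was 3.70 (SE 0.22, edgeR adjusted p = 2.89e-06). The RNA helicase Ddx3y differed by 3.69 (SE 0.19, edgeR adjusted p = 1.05e-06), the histone demethylase Kdm5d by 3.58 (SE 0.22, edgeR adjusted p = 3.01e-06) and its relative Uty by 3.47 (SE 0.24, edgeR adjusted p = 5.95e-06). No library of experiments 5 or 7 reached the lowest library of experiment 9 for any of the 4. None of the 4 was called between experiments 7 and 5 (edgeR adjusted p = 0.714 for Eif2s3y, 0.204 for Ddx3y, 0.221 for Kdm5d and 0.233 for Uty). All 4 had lower estimates in experiment 7, with a median log2 difference of -0.60. Xist, the RNA that coats an inactive X chromosome, had 0 to 2 counts in each library.

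Long stretches of other chromosomes also shifted together in experiment 9. The stretches were delimited after seeing the values, so they are a description without a test. Of 252 windows of 10 Mb with at least 10 tested genes, the median log2 difference of experiment 9 was below -0.2 in 24 and above 0.2 in 14. For experiment 7 against 5 it was below -0.2 in 0 windows and above 0.2 in 3. The spread of window medians was 0.146 (SD) for experiment 9 and 0.0687 for 7 against 5.

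The first 60 Mb of chromosome 17 held the most genes of these stretches. Its 514 tested genes had a median log2 difference of -0.34, a fold of 0.787, and 89.5% of them were lower in experiment 9. Of these genes, 207 were called lower and 8 higher, which is 41.8% called beside 15.2% on the chromosomes outside the named stretches, and they made up 18.6% of all lower calls. By library, the median deviation was -0.25, -0.30, -0.20 and -0.16 in experiment 9 and 0.05 to 0.20 in the other 8. Beyond 70 Mb the sign turned: the median of 83 genes was 0.23, with 22 called higher and 3 lower (30.1% called).

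Chromosome 13 showed the reverse order. Its first 60 Mb held 235 tested genes with a median of 0.27, a fold of 1.21. Of these, 84 were called higher and 2 lower (36.6%), beside 17.6% of all genes called. From 60 Mb on, 228 genes had a median of -0.18, with 6 called higher and 49 lower (24.1%). The longest run of neighbouring genes called in the same direction was 8 genes on this chromosome, from Cdk13 to Trim27, all higher. The last part of chromosome 14, from 100 Mb, had a median of -0.27 over 40 genes, with 15 called lower and 0 higher (37.5%). The X chromosome had a median of -0.22 over 389 genes, with 96 called lower and 37 higher (34.2%). In each of these stretches the 4 libraries of experiment 9 lay on 1 side of all 8 others. The same stretches had medians of -0.03 to 0.03 for 7 against 5. The 10862 genes on chromosomes other than 13, 17, X and Y had a median of 0.01 in experiment 9, with 899 called higher and 751 lower. That median pools chromosomes that went both ways, from -0.146 on chromosome 14 to 0.137 on chromosome 6. On chromosome 4, 71.6% of genes were lower in experiment 9, and on chromosome 6, 30.1% were. Runs of at least 5 neighbouring genes called in the same direction numbered 9 for experiment 9, of which 4 lay on chromosome 17 and 3 on chromosome 13, and 0 for 7 against 5, where edgeR had called 686 genes in all.

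**Figure D3:**
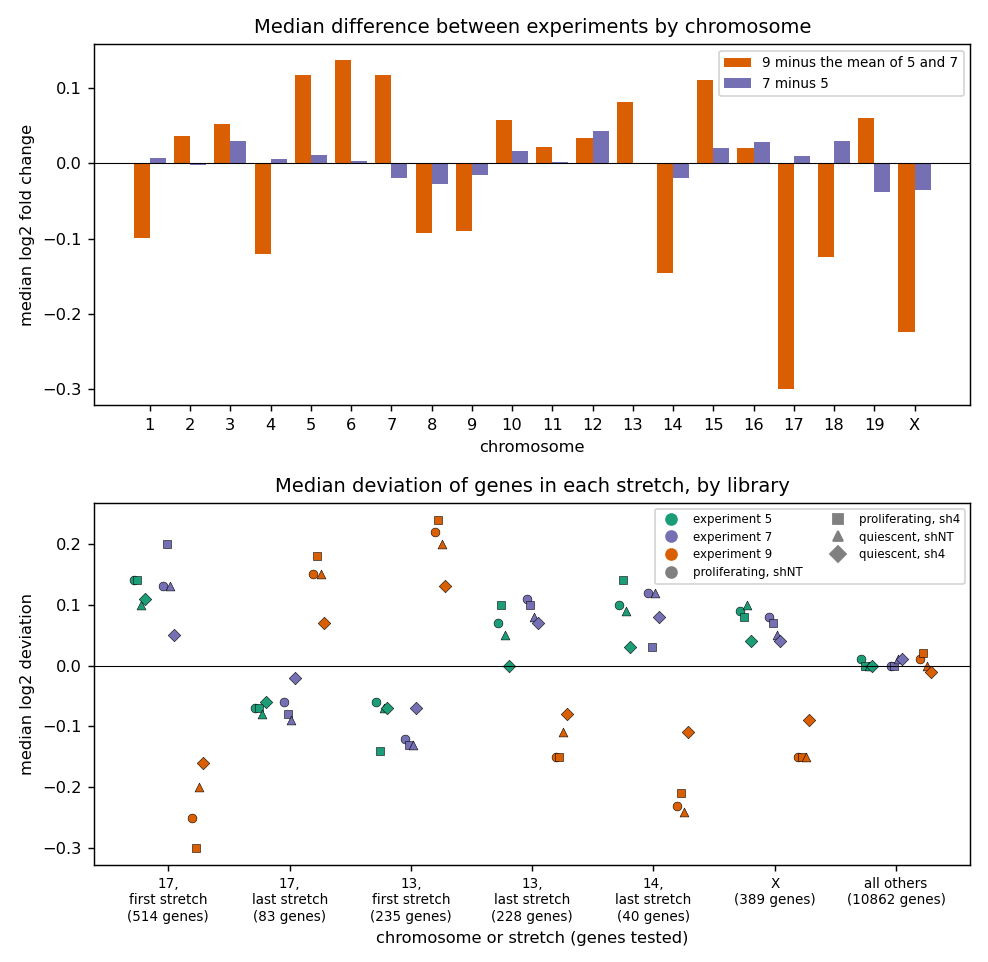
The upper panel gives the median log2 fold change per chromosome (y axis) for 9 minus the mean of 5 and 7 and for 7 minus 5, and the lower panel gives the median log2 deviation of each library from its condition mean for the stretches named in the text. Medians of experiment 9 range down to -0.30 on chromosome 17, those of 7 minus 5 stay between -0.038 and 0.043, and chromosome Y is left out of both panels.

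Genes of the IGF axis and imprinted genes formed a smaller shifted group. Of 19 tested members, 9 were higher in experiment 9 and 1 lower, against 8.59% and 8.99% of all genes, with a median log2 difference of 0.54. In 7, experiment 9 was above both others in all 4 conditions, against 7.52% of all genes. Between 7 and 10 were higher when single libraries were left out. The median fell to 0.25 among members with a mean count of at least 50.

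Sgce and Peg10 are an imprinted pair that starts 0.099 kb apart on opposite strands of chromosome 6 (chr6:4674350-4747207 and chr6:4747306-4760517, GRCm38.p6). Sgce, a sarcoglycan of the dystrophin complex, stood at 8.81, 14.4, 35.4 and 19.3 CPM in experiment 9, at 1.07, 1.34, 1.66 and 1.22 CPM in experiment 5 and at 0.462, 0.417, 0.673 and 0.895 CPM in experiment 7 (log2 difference 4.35, SE 0.24, edgeR adjusted p = 1.9e-06). Peg10, a retrotransposon-derived gene, stood at 8.92, 3.33, 6.32 and 9.49 CPM in experiment 9 and at 0.0612 to 0.991 CPM in the others (log2 difference 4.41, SE 0.37, edgeR adjusted p = 2.67e-05). Experiment 9 did not overlap with the rest in either gene. The kit keeps strand, but the counting setting is not given in the sources used here, so reads near their shared start may be assigned to either gene. Farther neighbours moved little: Casd1, 31 kb away, differed by 0.32 (edgeR adjusted p = 0.0296), and Ppp1r9a, 156 kb away, by -0.03 (edgeR adjusted p = 0.916).

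Igfbp7, a secreted IGF binding protein, stood at 29.2, 58.3, 35.5 and 51.3 CPM in experiment 9, at 13.5, 12.5, 4.14 and 4.17 CPM in experiment 5 and at 7.62, 7.74, 2.39 and 4.23 CPM in experiment 7. These did not overlap, and the log2 difference was 2.82 (SE 0.27, edgeR adjusted p = 5.62e-05). The growth factor Igf2 was low: 0.966, 1.09, 2.45 and 10.4 CPM in experiment 9 and 0 to 2.09 CPM elsewhere, with overlap (log2 difference 2.93, SE 0.43, edgeR adjusted p = 0.00106). Plagl1, an imprinted zinc finger factor, was likewise low at 0.689 to 3.4 CPM in experiment 9 and 0 to 0.656 CPM elsewhere (log2 difference 3.19, SE 0.46, edgeR adjusted p = 0.000976). H19, the noncoding partner of Igf2, reached 4.16 CPM in the quiescent sh4 library of experiment 9 and stayed below 1 CPM in all others (log2 difference 2.48, SE 0.45, edgeR adjusted p = 0.00376). Igf2r, the receptor that clears IGF2, was the member called lower: 48.4, 36.3, 91.4 and 119 CPM in experiment 9 against 126 to 277 CPM in the others, with no overlap (log2 difference -1.39, SE 0.19, edgeR adjusted p = 0.000689). Igf2r lies on chromosome 17 within the lower stretch, whose median was -0.34.

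Some Wnt pathway genes were lower in experiment 9. Of 24 tested members, 6 were lower, against 8.99% of all genes, 2 were higher, and the median log2 difference was -0.30. Leaving out single libraries gave 4 to 9 lower, the fewest without the proliferating sh4 library of experiment 9. Axin2, a feedback inhibitor that Wnt signalling itself induces, stood at 1.76, 0.689, 4.71 and 1.58 CPM in experiment 9, at 16.7, 17.3, 23.5 and 8.48 CPM in experiment 5 and at 11.2, 8.58, 38.9 and 14.3 CPM in experiment 7. Its ranges did not overlap, and experiment 9 was lower (log2 difference -3.10, SE 0.39, edgeR adjusted p = 0.000405). The ligand Wnt6 differed by -2.21 (SE 0.48, edgeR adjusted p = 0.00944) and its neighbour Wnt10a by -0.94 (SE 0.23, edgeR adjusted p = 0.0172). They lie in a run of 4 adjacent genes called lower on chromosome 1, from Cyp27a1 to Ihh. The receptor Fzd10 differed by -1.21 (SE 0.21, edgeR adjusted p = 0.00331) and the coreceptor Lrp5 by -0.50 (SE 0.09, edgeR adjusted p = 0.00446). Ror2, a receptor for noncanonical Wnt ligands on chromosome 13, was higher by 4.03 (SE 0.53, edgeR adjusted p = 0.000557), at 0.352 to 2.24 CPM in experiment 9 and 0 to 0.239 CPM elsewhere.

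Gata2, a transcription factor of the GATA family, was lower in experiment 9 at a nearly constant level. It stood at 7.73, 7.46, 7.51 and 9.43 CPM in experiment 9, at 27.7, 25.9, 27.7 and 27.2 CPM in experiment 5 and at 21.9, 21.7, 17.6 and 14.6 CPM in experiment 7. The 3 ranges did not overlap, and the log2 difference of experiment 9 was -1.49 (SE 0.13, edgeR adjusted p = 4.42e-05).

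Matrix genes went both ways. Of 24 tested genes for matrix and collagens, 4 were higher and 8 lower in experiment 9, against 8.59% and 8.99% of all genes, with a median log2 difference of -0.06. Leaving out single libraries gave 3 to 6 higher and 1 to 9 lower, the fewest lower without the proliferating sh4 library of experiment 9. Timp3, a matrix-bound inhibitor of metalloproteinases, stood at 8.98, 5.39, 55.6 and 67.7 CPM in experiment 9 and at 0.393 to 4.17 CPM in the others (log2 difference 4.06, SE 0.29, edgeR adjusted p = 9.67e-06). Col4a5, a basement membrane collagen chain, was higher by 2.20 (SE 0.29, edgeR adjusted p = 0.000578). Col4a3 and Col4a4 encode the chains that pair with it and start 0.072 kb apart, head to head, on chromosome 1, so reads at their shared start are uncertain. Col4a3 stood at 4.66, 2.41, 16.3 and 16.8 CPM in experiment 9, at 23, 14.7, 25.9 and 22.4 CPM in experiment 5 and at 47.4, 33.9, 129 and 70.4 CPM in experiment 7. Experiment 9 was lower (log2 difference -2.14, SE 0.29, edgeR adjusted p = 0.000751), although its quiescent libraries overlapped with experiment 5. Col4a4 differed by -1.77 (SE 0.24, edgeR adjusted p = 0.000776). The fibrillar collagen gene Col27a1 differed by -2.16 (SE 0.18, edgeR adjusted p = 3.34e-05).

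The genes with the largest differences outside these groups were of mixed function. Sptlc3, a subunit of the enzyme that starts sphingolipid synthesis, stood at 25.9, 33.8, 21.2 and 18.7 CPM in experiment 9, at 3.76, 3.73, 5.18 and 5.62 CPM in experiment 5 and at 0.635, 0.536, 0.673 and 2.62 CPM in experiment 7. The 3 ranges did not overlap (log2 difference 3.51, SE 0.30, edgeR adjusted p = 3.33e-05). The glycosyltransferase Mgat3 differed by 2.89 (SE 0.26, edgeR adjusted p = 4.01e-05), Heg1, a mucin-like membrane protein, by 2.87 (SE 0.22, edgeR adjusted p = 1.63e-05) and Pros1, the anticoagulant protein S, by 2.57 (SE 0.27, edgeR adjusted p = 0.000127). Cyp11a1, which makes pregnenolone from cholesterol, differed by 2.45 (SE 0.33, edgeR adjusted p = 0.000681). On the lower side stood Adamts16, Dgkk, Slc5a5, Tmem45b, 1110012J17Rik, Car5b and Srd5a1. The calls of Dgkk and Tmem45b were lost when any of several single libraries was left out, and over all alternatives tried their edgeR adjusted p reached 0.166 and 0.205.

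Sterol and fatty acid synthesis genes had 7 of 33 tested members higher in experiment 9, against 8.59% of all genes, and 0 lower, with a median of 0.24. Leaving out single libraries gave 5 to 10 higher. The median was 0.10 without the proliferating sh4 library of experiment 9 and 0.34 at most in the other such fits. Scd1, the stearoyl-CoA desaturase, differed by 2.42 (SE 0.31, edgeR adjusted p = 0.00053), Acss2 by 1.27 and Lss, which closes the sterol ring, by 1.13. Genes of xenobiotic and retinoid metabolism had 5 of 17 higher, against 8.59% of all genes, and a median of 0.51. Without the quiescent sh4 library of experiment 9 that count was 2 and the median 0.31, and without its quiescent shNT library they were 4 and 0.08. The median was 0.19 among members with a mean count of at least 50. Among its called members Ugt1a6a and Ugt1a7c share exons, so their reads cannot be told apart. The calls of Aldh1a2, Aldh3b1 and Aldh3b2 were lost without that quiescent sh4 library. Aldh3b1 and Aldh3b2 lie in the run of 5 neighbouring genes on chromosome 19, with Unc93b1, that were all called higher. Notch pathway genes had 2 higher, 2 lower and a median of -0.38 over 14 members, beside 17.6% of all genes called. Without members on chromosomes 13, 17, X and Y that median was -0.20. Glucocorticoid-responsive genes had 6 of 16 lower, against 8.99% of all genes, and 1 higher. Without the proliferating sh4 library of experiment 9, 3 were lower. Among the lower ones were Fkbp5 at -1.23 and Dusp1 at -1.05 on the log2 scale. Fkbp5 and Dusp1 both lie in the lower stretch of chromosome 17. Genes of cohesin, CTCF and DREAM had 1 of 28 higher and 3 lower in experiment 9, a share below the 17.6% of all genes called.

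**Figure D4:**
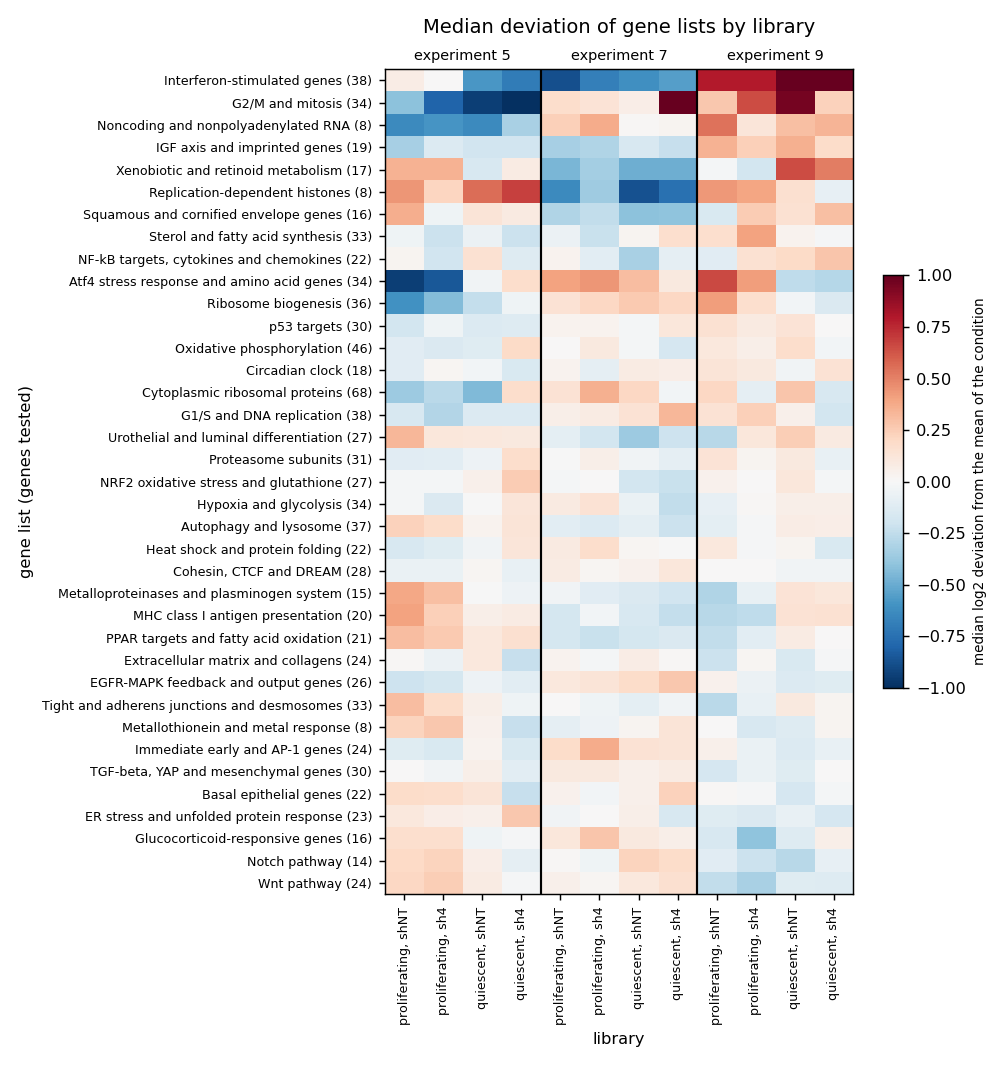
Median log2 deviation from the mean of the condition (colour) for each gene list with at least 8 tested genes (y axis, sorted by the level in experiment 9) in each of the 12 libraries (x axis, grouped by experiment). Interferon-stimulated genes stand at 0.79 to 1.5 in all 4 libraries of experiment 9 and at or below 0.07 in the other 8.

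Mitotic genes were among those higher in experiment 7 than in experiment 5. Of 34 tested G2/M genes, 9 were higher in experiment 7 and 0 lower, against 2.03% of all genes higher, with a median log2 difference of 1.15. In 31 of the 34, experiment 7 was above 5 in all 4 conditions, against 16.4% of all genes. The list deviated by -0.41, -0.80, -0.94 and -1.32 in experiment 5, by 0.18, 0.14, 0.07 and 1.05 in experiment 7, and by 0.27, 0.65, 0.95 and 0.23 in experiment 9. Each library of experiment 5 was thus below each library of the other 2.

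Ccnb2, a mitotic cyclin, stood at 26.5, 17.5, 0.552 and 0.725 CPM in experiment 5 and at 69.6, 57.2, 1.41 and 5.49 CPM in experiment 7 (log2 difference 1.73, SE 0.33, edgeR adjusted p = 0.0224). Within each state its libraries of the 2 experiments did not overlap. Ccna2 differed by 1.60 (SE 0.39, edgeR adjusted p = 0.043), the mitotic kinase Plk1 by 1.55 (SE 0.38, edgeR adjusted p = 0.0431), Hmmr, a spindle protein, by 1.44 (SE 0.28, edgeR adjusted p = 0.0228) and the centromeric histone Cenpa by 1.42 (SE 0.32, edgeR adjusted p = 0.0358). These calls rested on single libraries, and the median of the list was 0.70 without the quiescent sh4 library of experiment 7. No member was called without the proliferating sh4 library of experiment 5 or the proliferating shNT library of experiment 7, 12 at most were called in the other such fits, and 14 were called without the 3 quiescent sh4 libraries.

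In experiment 9, 5 of 34 G2/M genes were higher than the mean of 5 and 7, against 8.59% of all genes, with a median of 0.63. In 0 of the 34 was experiment 9 above both others in all 4 conditions, against 7.52% of all genes. The 5 were Ccnb2, Hmmr, Aurka, Ect2 and Foxm1, at 0.66 to 1.09 log2 units. None was called without the proliferating sh4 library of experiment 9, and 26 were called without the 3 quiescent sh4 libraries. Genes of G1/S and DNA replication differed less: 1 of 38 was called higher in experiment 7, against 2.03% of all genes. It was Pcna, the replication clamp (log2 difference 0.36, SE 0.09, edgeR adjusted p = 0.0469). The median of that list was 0.37. In 23 of the 38, experiment 7 was above 5 in all 4 conditions, against 16.4% of all genes.

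Histone transcripts differed in the opposite direction. Of 8 tested replication-dependent histone genes, 4 were lower in experiment 7 than in 5 and 0 higher, against 3.5% of all genes lower, with a median of -1.22. These genes make transcripts without a poly(A) tail in dividing cells, and the libraries were made from the polyadenylated fraction, so only tailed or carried-over transcripts were counted. All genes with symbols that start with Hist1h to Hist4h, in the list or not, took 0.00723 to 0.0244% of counts in experiment 5. In experiment 7 they took 0.00389 to 0.0124%. The linker histone Hist1h1c stood at 29.5, 34.5, 71.6 and 107 CPM in experiment 5 and at 10.8, 13.8, 25.3 and 53.1 CPM in experiment 7, lower in each of the 4 conditions (log2 difference -1.29, SE 0.17, edgeR adjusted p = 0.00779). Hist1h2bc stood at 17.7, 22.4, 31.5 and 52.1 CPM in experiment 5 and at 9.18, 10.8, 13.2 and 18.6 CPM in experiment 7 (log2 difference -1.19, SE 0.13, edgeR adjusted p = 0.00476). Both were called lower in experiment 7 whichever library was left out. Hist1h2ac and Hist2h3c1, at most 7.16 CPM, were lower as well, with log2 differences of -2.16 and -1.24, and 2 to 4 members were called when single libraries were left out, 2 without the proliferating shNT, proliferating sh4 or quiescent shNT library of experiment 7.

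For experiment 9 the histone list had 2 members higher, against 8.59% of all genes, Hist1h4h by 1.2 and Hist1h2bc by 0.58, and a median of 0.43. The Hist1 genes lie on the first part of chromosome 13, where the median of all genes was 0.27. Without members on chromosomes 13, 17, X and Y the list median was -0.09, from 1 remaining gene.

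Of 36 tested ribosome biogenesis genes, 9 were higher in experiment 7 than in 5, against 2.03% of all genes, 0 were lower, and the median was 0.52. In 31 of them experiment 7 was above 5 in all 4 conditions, against 16.4% of all genes. Nop58, a core protein of box C/D snoRNPs, stood at 105, 88, 79.1 and 74.6 CPM in experiment 5 and at 216, 182, 109 and 101 CPM in experiment 7, with no overlap within either state (log2 difference 0.72, SE 0.17, edgeR adjusted p = 0.0378). Rrp12, Gnl3, Mybbp1a and Heatr1, other factors of rRNA processing or synthesis, differed by 0.91, 0.87, 0.68 and 0.63. No member was called when 1 library of experiments 5 or 7 was left out, except the quiescent sh4 library of experiment 5, whose removal gave 33. Removal of the proliferating shNT library of experiment 9 gave 26 and of its proliferating sh4 library 2. Without the 3 quiescent sh4 libraries 27 were called. Of 8 tested noncoding and nonpolyadenylated RNAs, 3 were higher in experiment 7 and 0 lower, against 2.03% and 3.5% of all genes. Only 1 was higher without the proliferating shNT library of experiment 5 or of experiment 7. The 3 called with all libraries are host genes of snoRNAs. Snhg12 differed by 1.34 (SE 0.22, edgeR adjusted p = 0.0148), Snhg1 by 0.88 (SE 0.14, edgeR adjusted p = 0.0141) and Gas5 by 0.83 (SE 0.20, edgeR adjusted p = 0.0416). Snhg12 lost its call without either proliferating shNT library of experiments 5 and 7, and Gas5 without any of 8 libraries.

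Some growth factor response genes were higher in experiment 7. Of 24 immediate early genes, 5 were higher and 0 lower, against 2.03% of all genes higher and 3.5% lower, among them Egr1 by 1.04 (edgeR adjusted p = 0.0409), Myc by 0.90 (edgeR adjusted p = 0.0305) and Fos by 0.86 (edgeR adjusted p = 0.0378). Leaving out either proliferating library of experiment 5, or the proliferating shNT, proliferating sh4 or quiescent shNT library of experiment 7, gave 0 called immediate early genes, and 7 at most were called in the other such fits. Of 26 genes of EGFR and MAPK output, 3 were higher and 0 lower, against 2.03% and 3.5% of all genes. Between 1 and 4 were higher when single libraries were left out. Without the quiescent sh4 library of experiment 5, 4 were higher and 4 lower. Without the 3 quiescent sh4 libraries, 2 were higher and 1 lower. The 3 called with all libraries were led by Dusp6, the ERK phosphatase. It stood at 102, 101, 21.6 and 19.8 CPM in experiment 5 and at 226, 207, 50.4 and 51.1 CPM in experiment 7. Each Dusp6 library of experiment 7 was above its match in experiment 5 (log2 difference 1.21, SE 0.19, edgeR adjusted p = 0.0137).

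Some differentiation and lysosome genes were lower in experiment 7. Of 27 urothelial and luminal genes, 5 were lower and 0 higher, against 3.5% of all genes lower, with a median of -0.54. Leaving out single libraries gave 1 to 6 lower, with 1 without either proliferating library of experiment 5 or without the proliferating shNT, proliferating sh4 or quiescent shNT library of experiment 7. In all, 14 were below experiment 5 in all 4 conditions, against 16.7% of all genes. Foxa1, a pioneer factor of luminal cells, stood at 35.4, 37.4, 84.8 and 51.8 CPM in experiment 5 and at 17.5, 20, 33.8 and 37.6 CPM in experiment 7 (log2 difference -0.95, SE 0.23, edgeR adjusted p = 0.0409). Elf3 differed by -0.91 (SE 0.20, edgeR adjusted p = 0.0317) and the keratin Krt19 by -0.54 (SE 0.13, edgeR adjusted p = 0.0436). Among genes of the cornified envelope, Sprr1a stood at 17.3, 17.8, 90.1 and 164 CPM in experiment 5 and at 4.27, 12.2, 5.32 and 12.3 CPM in experiment 7 (log2 difference -2.59, SE 0.53, edgeR adjusted p = 0.0264). Ivl, involucrin, differed by -1.64 and Sprr2g, 1 of a family of close copies whose counts are uncertain, by -1.94. The calls of these 3 envelope genes were lost without any of 5 to 9 single libraries. Lysosome and autophagy genes had 9 of 37 lower, against 3.5% of all genes, and 0 higher, with a median of -0.23, among them the cathepsins Ctsh by -0.92, Ctsl by -0.54, Ctsa by -0.51 and Ctsb by -0.42. That count was 0 without the proliferating shNT library of experiment 5 or without the proliferating shNT, proliferating sh4 or quiescent shNT library of experiment 7. It was 9 without the 3 quiescent sh4 libraries.

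Among single genes, B4galnt2, which makes the Sda carbohydrate antigen, had the largest rise in experiment 7 of those chosen by rule. It stood at 0.842, 1.28, 1.79 and 1.68 CPM in experiment 5, at 10.8, 7.09, 27.7 and 21.8 CPM in experiment 7 and at 38.2, 16, 24.3 and 11.8 CPM in experiment 9. Experiment 5 did not overlap with either (7 against 5: log2 difference 3.49, SE 0.45, edgeR adjusted p = 0.00779). Bicc1, an RNA-binding protein, stood at 1.4, 1.63, 36.7 and 29.6 CPM in experiment 5 and 8.66, 7.98, 95.3 and 99.7 CPM in experiment 7 (log2 difference 1.83, SE 0.25, edgeR adjusted p = 0.00887). Fhl1, a LIM domain protein, differed by 2.73 (SE 0.49, edgeR adjusted p = 0.0186). Slfn2, a Schlafen family member, was lower in experiment 7 at 3, 4.41, 4.41 and 8.71 CPM against 23.3, 25.1, 21.9 and 32.5 CPM in experiment 5, with no overlap (log2 difference -2.48, SE 0.35, edgeR adjusted p = 0.00887). The aspartic protease Ctse differed by -2.24 (SE 0.50, edgeR adjusted p = 0.0334) and the thioesterase Acot1, a PPAR target, by -2.34 (SE 0.43, edgeR adjusted p = 0.02). Of the 32 genes chosen by rule for 7 against 5, 10 kept their call whichever library was left out. Fhl1, Acot1 and Ctse were not among them, and over all alternatives tried their edgeR adjusted p reached 0.389, 0.37 and 0.43.

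**Figure D5:**
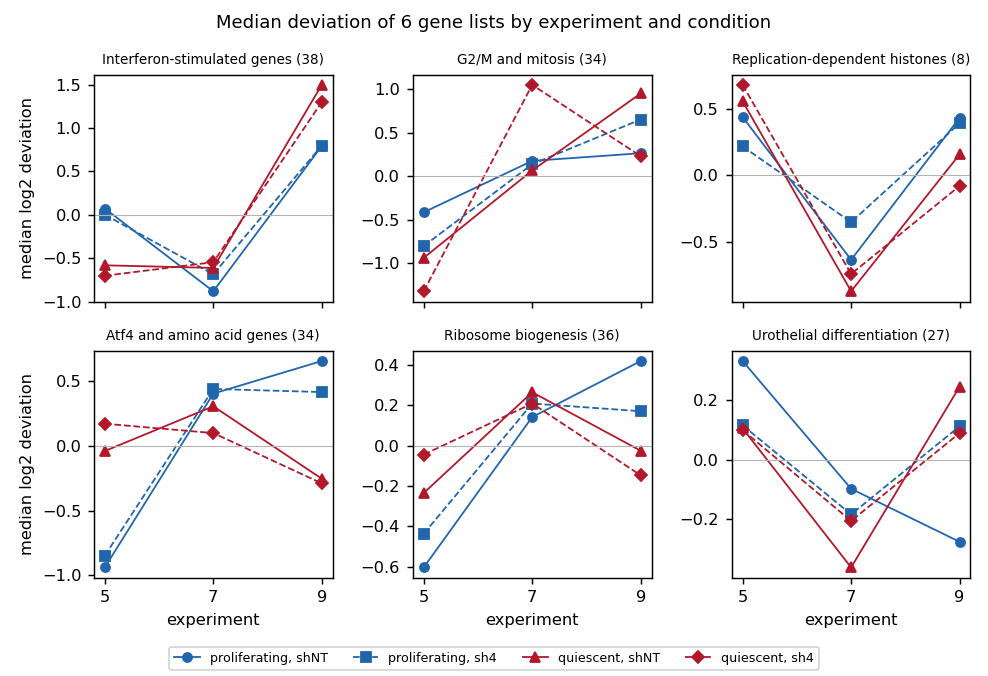
Median log2 deviation from the condition mean (y axis) of 6 gene lists in experiments 5, 7 and 9 (x axis), with 1 line per condition. Interferon genes are highest in experiment 9 in all 4 conditions, G2/M genes lowest in experiment 5, and the Atf4 list differs between experiments in proliferating cells (-0.94 to 0.66) more than in quiescent cells (-0.29 to 0.31).

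The differences between experiments depended on growth state. The shift of experiment 9 differed between quiescent and proliferating cells for 310 genes (2.5%): for 151 (1.22%) it was higher in quiescent cells and for 159 (1.28%) lower. The difference of 7 and 5 depended on state for 121 genes (0.975%), 60 higher (0.484%) and 61 lower (0.492%). Both counts fell to 0 on leaving out 1 library, without the proliferating shNT library of experiment 9 for the first and without the proliferating sh4 library of experiment 5 for the second. The common coefficient of variation was 0.124 with the state term. The median SD between experiments was 0.264 and 0.244 log2 units in proliferating shNT and sh4 cells and 0.21 in both quiescent conditions.

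Atf4 targets and amino acid genes held 21 of the 159 lower calls for experiment 9. Atf4 is the transcription factor that the integrated stress response raises when amino acids are short, and its targets make, import and charge amino acids. Of 34 tested members, 21 had a lower shift of experiment 9 in quiescent than in proliferating cells and 0 a higher one, against 1.28% of all genes, with a median difference of -1.06. For 7 against 5, 19 had a lower shift and 0 a higher one, against 0.492%, with a median of -1.19. Both comparisons use the libraries of experiments 5 and 7. Within proliferating cells, 26 members were higher in experiment 9 than the mean of the others (13.7% of all genes were) with a median of 0.78. In the same cells, 29 were higher in experiment 7 than in 5 (7.16% of all genes) with a median of 1.30. Experiment 5 was the low one: with shNT and sh4 the list deviated by -0.94 and -0.85 in experiment 5. It deviated by 0.41 and 0.44 in experiment 7 and by 0.66 and 0.42 in experiment 9. Within quiescent cells, 12 were lower in experiment 9 (3.69% of all genes) with a median of -0.42, and 0 were called higher or lower between 7 and 5 by edgeR, where 0.806% of all genes were higher. The counts of 21 and 19 fell to 0 without the proliferating shNT library of experiment 9 and the proliferating sh4 library of experiment 5, while the medians stayed at -1.26 to -0.96 and -1.42 to -1.0.

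Atf4 itself stood at 232, 208, 503 and 655 CPM in experiment 5, at 630, 595, 638 and 573 CPM in experiment 7 and at 893, 621, 600 and 585 CPM in experiment 9. The proliferating cells of experiment 5 were the low libraries, and the quiescent libraries of the 3 experiments overlapped. The shift of 7 against 5 was lower in quiescent cells (difference -1.42, SE 0.25, edgeR adjusted p = 0.0363). Psat1, an enzyme of serine synthesis, stood at 108, 84.3, 221 and 258 CPM in experiment 5, at 455, 373, 260 and 180 CPM in experiment 7 and at 515, 386, 176 and 131 CPM in experiment 9. It rose from the proliferating to the quiescent libraries in experiment 5 and dropped in the other 2, and its shift in experiment 9 differed by state by -1.76 (SE 0.20, edgeR adjusted p = 0.00621). The asparagine synthetase Asns showed a difference of -1.36 for experiment 9 (SE 0.22, edgeR adjusted p = 0.0183). The cystine importer Slc7a11 stood at 11.8, 7.4, 17.5 and 12.6 CPM in experiment 5, at 56.1, 31.3, 16.3 and 11.6 CPM in experiment 7 and at 79.8, 52.7, 17 and 12.4 CPM in experiment 9. Its quiescent libraries lay between 11.6 and 17.5 CPM, and only its proliferating libraries were called higher in experiment 7 than in 5. The difference by state was -2.29 (SE 0.19, edgeR adjusted p = 0.00409). Gdf15, a secreted stress cytokine, was the 1 list member called higher in experiment 7 over both states (log2 difference 1.0, SE 0.15, edgeR adjusted p = 0.0113). Without the quiescent sh4 library of experiment 5, 21 members were called higher in experiment 7, without the proliferating or quiescent shNT library of experiment 9 it was 3 and 2, and without the 3 quiescent sh4 libraries 7. The textbook Atf4 element TGATGNAA was sought on both strands within 250 bases before the start. It was found in 9 of 29 list members with a promoter entry (31.0%) and in 6 of 17 called by state (35.3%). Over the whole promoter table, 1056 of 27025 genes held it (3.91%). The list members Gdf15, at either annotated start, and Trib3 held no match.

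Of 36 ribosome biogenesis genes, 11 had a lower shift of experiment 9 in quiescent cells, against 1.28% of all genes, and 0 a higher one, with a median of -0.63. In proliferating cells 22 were higher in experiment 9 than the mean of 5 and 7 (13.7% of all genes). In these cells 30 were higher in experiment 7 than in 5 (7.16% of all genes). With shNT and sh4 the list deviated by -0.60 and -0.44 in experiment 5, by 0.14 and 0.21 in 7 and by 0.42 and 0.17 in 9. In quiescent cells 4 were higher in experiment 7 (0.806% of all genes). The count of 11 went to 0 without the proliferating or the quiescent shNT library of experiment 9, without the proliferating shNT library of experiment 5 and without any library of experiment 7. It reached 22 at most in the other such fits.

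Interferon-stimulated genes were higher in experiment 9 in both states. In proliferating cells 27 of 38 were higher (13.7% of all genes) and 1 lower (12.7% of all genes), with a median of 1.35. In quiescent cells 35 were higher (6.08% of all genes) with a median of 2.06. The difference by state had a median of 0.85 and was called for 4 members, against 1.22% of all genes: Oas3 at 2.10, Oasl2 at 1.69, Parp9 at 1.10 and Ifih1 at 0.86. No member was called by state without the proliferating shNT library of any experiment, without the proliferating sh4 library of experiment 7 or without the quiescent shNT library of experiment 9. Oasl2, of the oligoadenylate synthetase family, stood at 7.39, 8.49, 37.1 and 60.1 CPM in experiment 9 and at 0.866 to 6.39 CPM elsewhere. Experiment 7 also had 15 members lower than experiment 5 in proliferating cells, where 8.71% of all genes were lower, with a median of -0.84. In quiescent cells that median was 0.007. Oasl2 was among the lower ones, at 0.866 and 1.43 CPM in proliferating cells of experiment 7 against 5.16 and 3.56 CPM in experiment 5.

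Of 20 antigen presentation genes, 6 had a higher shift of experiment 9 in quiescent cells, against 1.22% of all genes, and 0 a lower one, with a median of 0.77. None was called by state without the proliferating sh4 library of experiment 7 or without the proliferating or quiescent shNT library of experiment 9, and 6 at most were called in the other such fits. In proliferating cells 8 were lower in experiment 9, where 12.7% of all genes were, and 1 was higher. H2-T22, a nonclassical class I gene, had the largest difference at 3.05 (SE 0.54, edgeR adjusted p = 0.026), but stood at only 0.114 to 1.46 CPM in the 12 libraries and belongs to a family of close copies. B2m had a difference of 0.79 (SE 0.16, edgeR adjusted p = 0.0352). H2-T22 and Psmb8 lie on chromosome 17.

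No gene's shift in experiment 9 differed between the hairpins. By edgeR 0 of 12406 genes (0%) were called and 266 had an unadjusted p under 0.05, while DESeq2 called 0 and gave 255 at that level. This does not show that the shifts were equal under both hairpins.

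Whether the experiment was part of the model changed what could be called for the hairpin. With state and hairpin alone, edgeR called 4982 genes for state (40.2%) and 23 for the hairpin (0.185%), of which 3 were higher and 20 lower with sh4. With the experiment number as a replicate block, 6513 genes were called for state (52.5%) and 350 for the hairpin (2.82%), 150 higher and 200 lower. All 23 remained among the 350. The hairpin count under the block was 258 without the 4 libraries of experiment 5, 4 without those of experiment 7 and 3 without those of experiment 9.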

How the data were processed

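RNA was sequenced from 12 libraries of polyadenylated RNA made with a strand-keeping kit, with spike-in RNA added, per the labels' protocols. The deposited table holds raw read counts per gene for all 12 libraries, without spike-in or mitochondrially encoded rows. The submitters' processing notes name Bowtie, TopHat, HTSeq, DESeq2 and the build mm10, with no versions. The counts deposited by the authors were used as they are.

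Counts were scaled by TMM and filtered with filterByExpr (minimum count 10), and edgeR 4.0.16 (R 4.3.3) fitted experiment, state and hairpin by the quasi-likelihood method over all 12 libraries. Contrasts were 9 minus the mean of 5 and 7, and 7 minus 5. Dependence on state or hairpin came from added interaction terms. All adjusted p-values are Benjamini-Hochberg values over all tested genes. With 14524429 to 21987539 counts per library, a gene near 1 CPM rests on few counts and its precision is limited. DESeq2 1.42.0, other scalings and filters, offsets for GC content and length, subsets of conditions and each library left out in turn were alternatives. The code was tested on simulated data.

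The libraries of an experiment differed from each other in growth state, hairpin or both, so they were not technical repeats of a single culture. No condition was repeated within an experiment, so technical spread cannot be told apart from spread between cultures. No label says whether the cultures of an experiment were started separately. Same-numbered libraries came from the same experiment, and their deviations from the condition means correlated by 0.526 on average (18 pairs of libraries, lowest 0.225). For different numbers the average was -0.259 (36 pairs). The deviations of a condition sum to 0, so the negative average follows from the centring and is not separate evidence. The number served as the replicate block.

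Named genes were the 12 largest called changes each way per contrast whose mean log2 CPM reached 2 and whose direction held in all 4 conditions, the 4 largest each way by state, up to 5 called members per list described in depth, the 6 genes with the largest variance share of experiment, and Stag2. Other list members were named after their values were seen. The comparison, its members and the gene lists were chosen with earlier results of these data known. Coordinates and promoters come from RefSeq and GENCODE tables of GRCm38, in which 23095 of 23337 symbols were matched.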

Additional observations from a re-analysis of the deposited data

Results flagged for a closer look

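The results here are genes whose difference between experiments itself differed between proliferating and quiescent cells, by the interaction term of experiment and state in edgeR with a Benjamini-Hochberg adjusted p under 0.05. Each value in parentheses is the log2 difference between experiments in the quiescent state less the one in the proliferating state. Of the 8 genes named by rule in each comparison, none kept this call in every fit that left out 1 library.

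In experiment 9 against 5 and 7, several genes had a larger rise in quiescent cells. Ltf, the secreted iron binder lactoferrin, went from 0.42 in proliferating to 5.35 in quiescent cells (4.93). The membrane protease Adam8 went from -1.27 to 2.17 (3.44), the cholesterol exporter Abca1 from -0.59 to 2.52 (3.11) and the metallothionein Mt2 from -0.85 to 1.65 (2.5). These 3 genes changed sign between the states. Fhl1 went from 0.79 to 3.17 (2.38), Vtcn1 from -0.78 to 0.92 (1.69) and Slfn2 from no difference to 1.5 (1.51). Oasl2 went from 1.82 to 3.51 (1.69) and Igfbp7 from 2.07 to 3.55 (1.48), both higher in experiment 9 in either state. Col4a3 was less far below the other experiments in quiescent cells, at -1.53 against -2.98 (1.45), and Slc43a2 went from -0.90 to 0.37 (1.27).

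In the same comparison other genes had a smaller or reversed rise in quiescent cells. The folate enzyme Aldh1l2 went from 1.78 to -1.54 (-3.32), the cationic amino acid transporter Slc7a3 from 1.69 to -1.56 (-3.25) and the cysteine-making enzyme Cth from 2.11 to -0.87 (-2.98). Trib3, an inhibitor of Atf4 output, went from 1.86 to -0.75 (-2.62) and the peptide hormone Adm2 from 1.48 to -0.82 (-2.3). Slc7a3 and Trib3 are members of the Atf4 and amino acid list. Nup210 went from 2.07 to 0.03 (-2.04) and Cyp11a1 from 3.41 to 1.38 (-2.03).

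Between experiments 7 and 5, Sorcs2 went from -2.13 to 2.38 (4.51) and the matrix proteoglycan Vcan from -1.05 to 1.91 (2.95). D0H4S114 went from -3.44 to -0.04 (3.4), Gpr123 from -4.16 to -0.84 (3.32) and Slc43a2 from -2.55 to -1.05 (1.5). In the other direction, Slc7a3 went from 2.76 to -0.13 (-2.89), Ctse from -1.29 to -3.85 (-2.56), Tspan8 from 1.06 to -1.49 (-2.55) and Adm2 from 2.24 to -0.14 (-2.38). The 2 comparisons share the libraries of experiments 5 and 7, so a gene that appears in both is not seen in independent data.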

How the results depend on the processing

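The counts of called genes depended more on which libraries entered than on scaling, filters or covariates. For experiment 9 against 5 and 7 the 2181 calls became 4616 in proliferating libraries alone, 696 in quiescent, 177 in shNT and 154 in sh4 libraries alone, and 1063 to 3474 when single libraries were left out. For 7 against 5 the 686 calls became 3548 in proliferating and 189 in quiescent libraries alone, 1510 with DESeq2, 1353 without the 3 quiescent sh4 libraries (chosen after seeing the data) and 47 to 1998 when single libraries were left out. With shNT or sh4 libraries alone edgeR called 0 genes for 7 against 5, with 1590 and 853 at an unadjusted p under 0.05. The 2829 calls of any difference ranged from 1478 to 4659 on leaving out single libraries. The 310 calls by state for experiment 9 became 661 with DESeq2 and 0 to 681 on leaving out single libraries, and the 121 for 7 against 5 became 456 and 0 to 1383. A subset of conditions holds fewer libraries and fewer residual degrees of freedom; other causes were not tested.

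Of the list medians, that of the IGF axis and imprinted genes went from 0.544 to 0.247 at a mean count of at least 50, that of xenobiotic and retinoid genes from 0.506 to 0.185 and that of noncoding RNAs for 7 against 5 from 0.775 to 0.469. The G2/M median for 7 against 5 went from 1.148 to 0.73 without the 3 quiescent sh4 libraries. Without members on chromosomes 13, 17, X and Y the histone median went from 0.43 to -0.09, since 1 member remained, and the Notch median from -0.381 to -0.197. The medians of chromosomes 13, 17, X and Y kept their direction in every alternative run for them. Of 1273 values of the 54 genes named for experiment 9, 1129 kept their call, 144 lost it and 0 turned direction. Of 730 values of the 32 genes named for 7 against 5, 515 kept their call, 215 lost it and 0 turned direction. Of the 8 genes named by state in each comparison, 0 kept an edgeR adjusted p under 0.05 in every leave-out, and 0 turned direction.

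Under the replicate block the hairpin calls went from 23 to 350, and to 258, 4 and 3 when the block left out experiments 5, 7 and 9. State calls under the block were 6513, and 4640 to 6406 without 1 experiment. No block could be added to the comparisons of experiments, where the number is the term tested.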
